A study of Sus scrofa with 24 samples.

Results

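Epithelial tight junctions were examined in the utero-tubal junction (UTJ) of the sow through 4 of the 9 genes CLDN1, CLDN3, CLDN4, CLDN7, CLDN10, OCLN, TJP1, TJP3 and F11R. A gene was taken where a probe set of the array carried its symbol and no other. That held for CLDN4, CLDN7, TJP3 and F11R, each with 1 probe set, and the other 5 genes were not analysed here. Their values stand among 27558 probe sets, of which 13257 carry a single gene symbol.

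Tight junctions are belts of strands near the apical end of neighbouring epithelial cells, which close the space between the cells and part the apical from the basolateral membrane. Claudins build the strands and set which ions and solutes pass between the cells, and junctional adhesion molecules help to place the belt. Zonula occludens proteins lie under the membrane, where their PDZ domains hold the claudin tails and tie them to actin. In the UTJ, the narrow passage that joins the oviduct to the uterus and holds stored sperm before ovulation, such an epithelium lies between the spermatozoa in the lumen and the tissue beneath.

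UTJ tissue of Swedish Landrace sows in oestrus was measured on 24 arrays (Affymetrix Porcine Gene 1.0 ST). By the labels 8 arrays came from sows mated with a boar, 8 from SP-infused sows (50 ml of sperm-free seminal plasma) and 8 from control sows (50 ml of the semen extender Beltsville Thawing Solution, BTS). In every sow the tissue was removed by surgery within 24 h. The study's design also calls the control sows non-inseminated, so control stands here for the extender that the labels give. Both UTJs of 4 sows made up a group (12 sows in all), but the labels do not tie arrays to sows. Arrays were therefore tested singly, which makes the p-values smaller than the number of animals warrants.

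The values were log2 intensities after RMA (background correction, quantile normalization and 1 summary value for each probe set). Array medians spanned 5.75 to 5.87 in the mated group, 5.80 to 5.90 in the SP-infused group and 5.80 to 5.99 in the control group. Control replicate 1 had a narrower distribution, with an SD over probe sets of 1.91 against up to 2.13 in the other control arrays. Markers of the labelled tissue were measured in all arrays: the epithelial adhesion molecule EPCAM ran from 8.59 to 10.42, the ciliated cell factor FOXJ1 from 6.56 to 8.20 and the oviductal glycoprotein OVGP1 from 4.49 to 11.94 (log2, 24 arrays). Levels of different genes were not compared, since probe sets differ in their response, and the number of arrays limits the precision.

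The claudins had the widest spread of the 4 genes. CLDN4, a claudin that limits the passage of sodium between cells, had a lowest value of 6.66, a median of 8.18 and a highest of 9.16 in the 8 mated arrays (log2 intensity). In the 8 SP-infused arrays these were 7.25, 7.99 and 9.23, and in the 8 control arrays 7.03, 8.17 and 9.49. The groups overlapped over nearly their whole ranges. Means were 8.03 ± 0.84 in mated arrays, 8.26 ± 0.69 in SP-infused arrays and 8.27 ± 0.80 in control arrays (SD, n = 8 arrays each). The highest mated array exceeded the lowest by 5.67-fold, while the mated and control means lay 0.23 log2 units apart. In the pig assembly the neighbour of CLDN4 is CLDN3, for which no probe set with its symbol alone was found here.

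CLDN7, a claudin that also lies along the lateral membrane beside EPCAM, ran from 5.83 over a median of 7.35 to 8.16 in mated arrays. In SP-infused arrays it ran from 6.49 over 7.48 to 8.15, and in control arrays from 6.31 over 7.73 to 8.12. Its means were 7.21 ± 0.77 in mated arrays, 7.40 ± 0.58 in SP-infused arrays and 7.55 ± 0.57 in control arrays (SD, n = 8 arrays each). Mated replicates 6 and 4 held the lowest values of their group, and control replicate 7, at 6.31, lay apart from the other control arrays, which began at 7.34.

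The scaffold and the adhesion molecule varied less. TJP3, the zonula occludens protein that is largely limited to epithelia, ran from 5.99 over 6.46 to 7.11 in mated arrays, from 6.43 over 6.60 to 6.96 in SP-infused arrays and from 6.40 over 6.66 to 6.90 in control arrays. Both ends of its range lay in mated arrays, replicate 4 being the lowest and replicate 3 the highest. Group means were 6.50 ± 0.33 in mated arrays, 6.65 ± 0.21 in SP-infused arrays and 6.64 ± 0.20 in control arrays (SD, n = 8 arrays each).

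F11R, the junctional adhesion molecule A, which binds its like on the next cell and also leukocyte integrins, ran from 8.54 over 9.08 to 9.65 in mated arrays. In SP-infused arrays it ran from 8.53 over 9.22 to 9.89, and in control arrays from 8.29 over 9.08 to 9.51. Its means were 9.10 ± 0.41 in mated arrays, 9.22 ± 0.45 in SP-infused arrays and 9.03 ± 0.44 in control arrays (SD, n = 8 arrays each). The SD within groups was 0.78 for CLDN4, 0.65 for CLDN7, 0.43 for F11R and 0.26 for TJP3, against a median of 0.25 over all probe sets. The SD of CLDN4 was above that of 97.8% of probe sets and that of TJP3 above that of 51.6%.

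**Figure D1:**
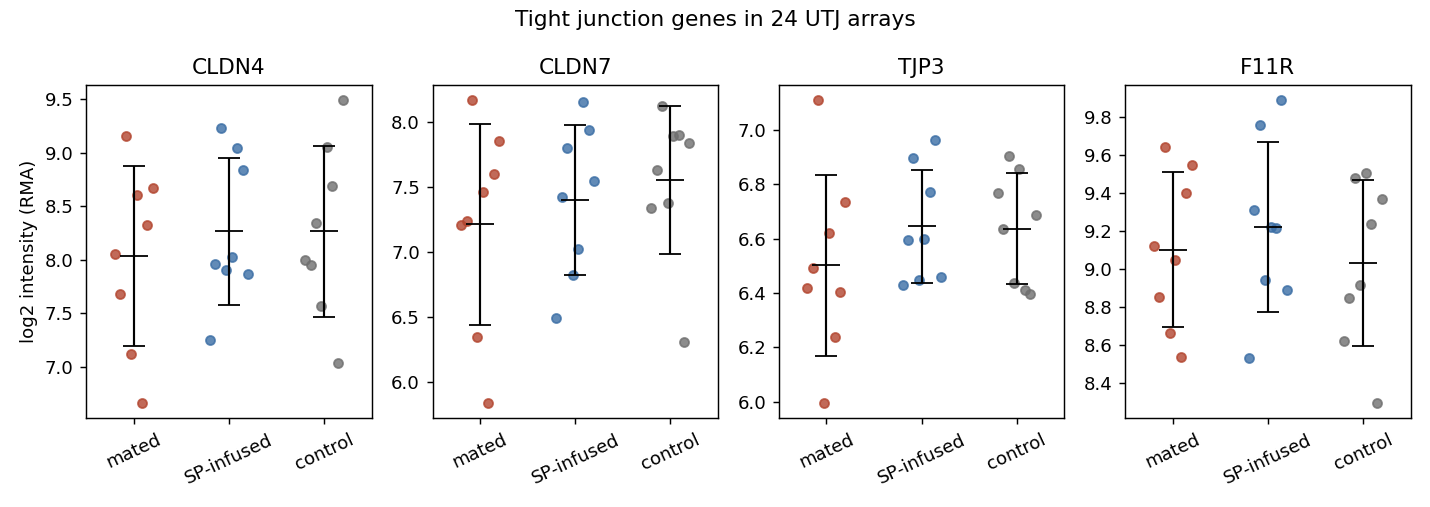
Log2 intensity of CLDN4, CLDN7, TJP3 and F11R in the 8 mated, 8 SP-infused and 8 control arrays, each panel with its own axis; points are arrays in order of replicate number, the long bar is the group mean and the whiskers are 1 SD. The groups overlap in every panel, and CLDN4 spans 6.66 to 9.16 within mated arrays alone.

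In the comparison of mated with control, 3 of the 4 genes had a lower mean in mated arrays and none passed the test. By the labels it sets mating with a boar against an infusion of BTS. Semen can therefore not be told apart here from the act of mating or from the infusion. CLDN7 differed most, by -0.34 (SE 0.30, 95% interval -0.96 to 0.28, adjusted p = 0.678, limma with Benjamini-Hochberg adjustment). CLDN4 differed by -0.23 (interval -0.98 to 0.51, adjusted p = 0.822) and TJP3 by -0.13 (interval -0.40 to 0.13, adjusted p = 0.694). F11R stood on the other side with 0.069 (interval -0.35 to 0.49, adjusted p = 0.92). As folds, the intervals leave room for a CLDN7 level in mated arrays between 0.514 and 1.22 times that of control. By limma 0 of 4 genes passed at an adjusted p under 0.05, and 0 at an unadjusted p under 0.05. Over all probe sets 0% passed after adjustment and 11.4% without it, 2.88% on the higher and 8.52% on the lower side. That split depends on scaling: 793 probe sets were higher and 2349 lower as deposited, against 1543 and 1154 with equal array medians. The median difference of the 4 genes was -0.18, beside -0.047 over all probe sets.

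Single arrays moved these values. The median of the 4 genes was -0.067 without mated replicate 6 and -0.31 without mated replicate 3. Without control replicate 7 the CLDN7 difference was -0.52, and without mated replicate 6 it was -0.14. CLDN4 was at -0.41 without control replicate 7 and at -0.037 without mated replicate 6, and TJP3 at -0.22 without mated replicate 3 and at -0.062 without mated replicate 4. F11R turned to -0.037 without control replicate 7 and to -0.0089 without mated replicate 3.

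In the comparison of SP-infused with control, which asks what seminal plasma does without spermatozoa, the means lay closer together. CLDN4 differed by -0.0012 (SE 0.36, interval -0.75 to 0.75) and TJP3 by 0.0082 (SE 0.13, interval -0.25 to 0.27). CLDN7 differed by -0.15 (interval -0.77 to 0.47, adjusted p = 0.949) and F11R by 0.19 (interval -0.23 to 0.61, adjusted p = 0.904, limma). The test found 0 of 4 genes with and without adjustment, where 0% and 5.15% of all probe sets passed (without adjustment 1.4% higher and 3.76% lower). The median of the 4 genes was 0.0035, beside -0.038 over all probe sets.

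Set against SP-infused arrays, mated arrays had the lower mean for each of the 4 genes, and again none passed. All 20 epithelial markers and all 12 ciliated cell markers also had the lower mean in mated arrays (medians -0.24 and -0.16), and 7 of 8 smooth muscle markers the higher one (median 0.15), where 53.7% of all probe sets were lower. In each of these lists 0 markers had an unadjusted p under 0.05, beside 3.34% of all probe sets (limma). Most markers of a list varied together, so they are not separate observations. TJP3 differed by -0.14 (SE 0.13, interval -0.40 to 0.12, adjusted p = 0.998), and 4 mated arrays lay below the lowest SP-infused one. CLDN4 differed by -0.23 (interval -0.98 to 0.51), CLDN7 by -0.19 (interval -0.81 to 0.43) and F11R by -0.12 (interval -0.54 to 0.30, adjusted p = 0.998 for each, limma). Without adjustment the count below 0.05 was again 0 of 4, beside 3.34% of all probe sets (1.52% higher and 1.82% lower), and after adjustment 0% of all probe sets passed. A miss of the threshold does not show equal levels, since the interval of CLDN4 reaches to -0.98 and that of CLDN7 to -0.81.

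**Figure D2:**
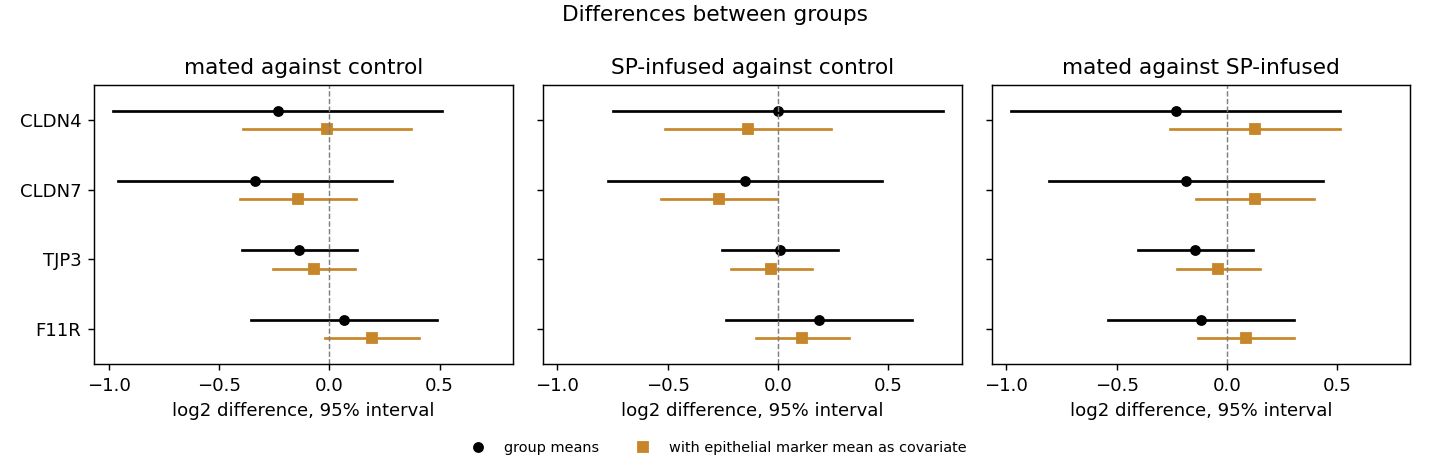
Log2 differences with 95% intervals (horizontal axis) for the 4 genes in 3 comparisons; black circles are the differences of group means and orange squares the differences with the epithelial marker mean of each array as a covariate. The black intervals all span 0, and with the covariate only the CLDN7 interval for SP-infused against control, which ends at -0.0071, does not.

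The 4 genes varied together from array to array. After the group means were removed, CLDN4 and CLDN7 had a Pearson r of 0.883 (Spearman rho 0.846) over 24 arrays, and CLDN4 and F11R 0.863 (rho 0.871). CLDN7 and F11R had 0.847 (rho 0.833). The pairs with TJP3 had r of 0.758 with CLDN4, 0.765 with CLDN7 and 0.742 with F11R. These are descriptions without a p, since arrays of the same sow are not independent, all genes were read from the same RNA, and the normalization is shared. Leaving out the 2 arrays farthest from the median of the first gene gave r from 0.730 to 0.893 over the 6 pairs.

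The relation was seen inside each group too. CLDN4 and CLDN7 had r = 0.972 among mated arrays, 0.873 among SP-infused arrays and 0.782 among control arrays (8 arrays each). The lowest values were those of TJP3 in control arrays, with 0.49 against CLDN4 and 0.55 against F11R. In 7 of 24 arrays all 4 genes lay above their group mean and in 6 all lay below it. Low for all 4 were mated replicates 4 and 6, SP-infused replicates 1 and 4 and control replicates 4 and 7. High for all 4 were mated replicates 3 and 8, SP-infused replicates 3 and 7 and control replicates 3, 5 and 8.

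**Figure D3:**
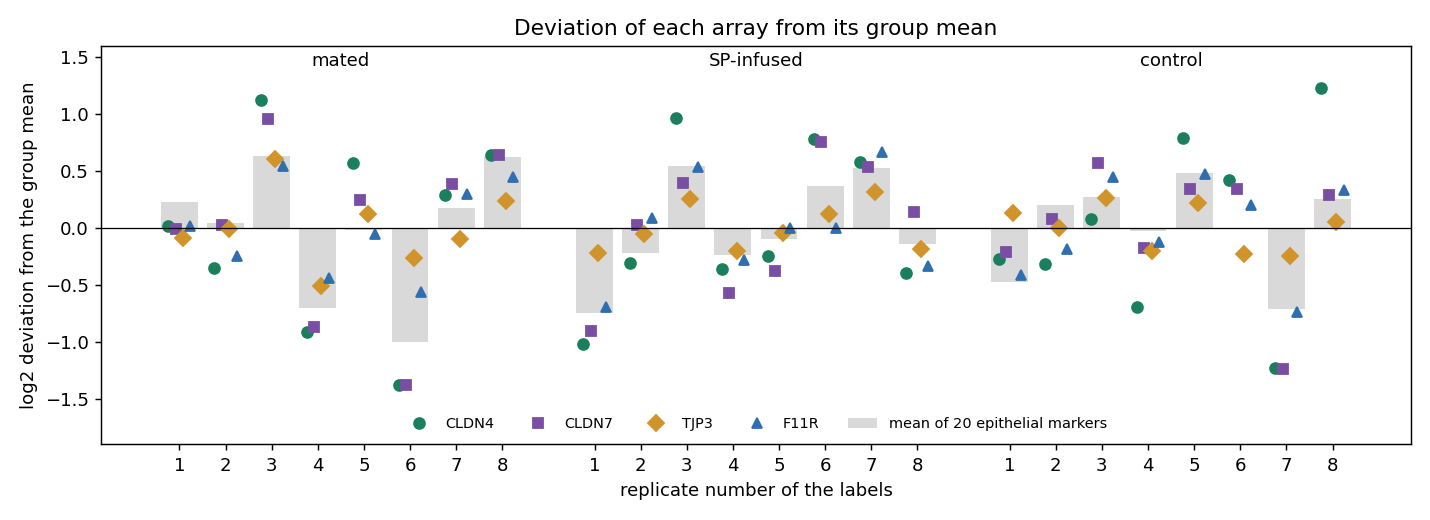
Deviation of each array from its group mean (log2, vertical axis) for CLDN4, CLDN7, TJP3 and F11R, by group and replicate number; grey bars are the deviation of the mean of 20 epithelial markers. The symbols of an array mostly lie on 1 side of 0, the side of the grey bar, as in mated replicate 6 (lowest) and mated replicate 3.

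Epithelial markers moved with the tight junction genes. The mean of the 4 genes had r = 0.938 (rho 0.941) with the mean of 20 epithelial markers (of 29 listed, among them EPCAM, the keratins KRT8, KRT18 and KRT19, and the epithelial splicing factor ESRP1), after group means were removed. By gene it was 0.922 for CLDN7 (rho 0.903), 0.893 for F11R (rho 0.89), 0.876 for CLDN4 (rho 0.869) and 0.775 for TJP3 (rho 0.821). Of the 20 markers 18 had r above 0.5 with the 4 genes; OVOL1 and LAMB3 did not. Markers of smooth muscle, which makes up the wall of the UTJ, went the other way, with r = -0.771 for their mean and r below -0.5 for each of 8 (of 13 listed). Without the 2 farthest arrays these r were 0.915 for the epithelial and -0.762 for the smooth muscle mean.

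The array with the lowest mean of the 4 genes, mated replicate 6, also had the lowest epithelial marker mean (6.55) and the highest smooth muscle mean (11.59). Epithelial marker means spanned 6.55 to 8.18 in mated arrays, 7.06 to 8.35 in SP-infused arrays and 6.99 to 8.19 in control arrays. Smooth muscle means spanned 10.80 to 11.59 in mated arrays, 10.24 to 11.51 in SP-infused arrays and 10.61 to 11.57 in control arrays. Of both lists OVOL1 alone had a mean below 5, where signal is low. In whole tissue, fewer epithelial cells and less RNA per epithelial cell cannot be told apart. The mean of the oviduct secretory markers had r = 0.740 with the mean of the 4 genes (10 of 13 listed). The markers did not all follow it: ESR1 had -0.552, PGR -0.373 and MSX1 -0.287, named after their r was seen. The others ran from 0.368 (OVGP1) to 0.885 (LCN2). The mean of the ciliated cell markers had r = 0.624 with that of the 4 genes (12 of 18 listed). It was 0.919 among mated arrays, 0.333 among SP-infused arrays and 0.395 among control arrays. Leukocyte markers had 0.599 (15 of 19 listed), which was 0.379 without the 2 farthest arrays, and 9 of the 15 had a mean below 5. Fibroblast and matrix markers had -0.367 (10 of 11 listed), which was -0.235 without the 2 farthest arrays.

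**Figure D4:**
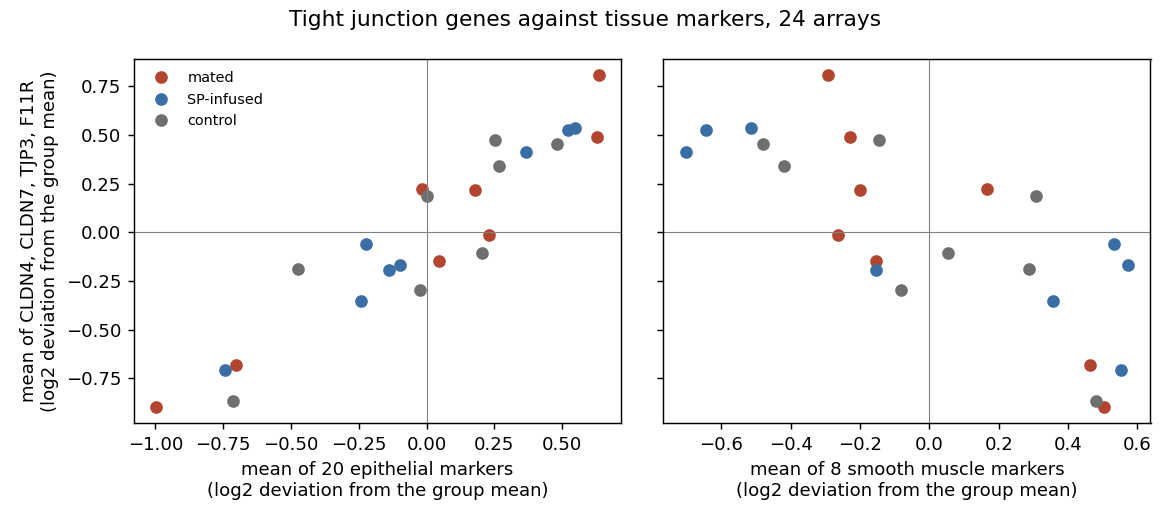
Mean of CLDN4, CLDN7, TJP3 and F11R (vertical axis) against the mean of 20 epithelial markers (left) and of 8 smooth muscle markers (right), all as log2 deviations from the group mean; each point is 1 of 24 arrays, coloured by group. The points run upward on the left (r = 0.938) and downward on the right (r = -0.771), and each group has points on both sides of 0.

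A fit with the epithelial marker mean of each array as a covariate was chosen after this relation was seen. Since that mean follows the 4 genes, smaller SEs came with the choice. The fit gives the difference at an equal marker mean, which is another quantity than the difference of group means. The SE of CLDN7 was 0.13 in place of 0.30, that of CLDN4 0.18 in place of 0.36 and that of F11R 0.10 in place of 0.20 (mated against control). CLDN4 then differed by -0.0098 between mated and control arrays, CLDN7 by -0.14, TJP3 by -0.070 and F11R by 0.20 (interval -0.018 to 0.41, adjusted p = 0.37, limma). For SP-infused against control CLDN7 differed by -0.27 (interval -0.53 to -0.0071) at an unadjusted p = 0.0446 and an adjusted p = 0.867 (limma). That is 1 of 4 genes below an unadjusted 0.05, where 5.59% of all probe sets lay. In the other comparisons it was 0 of 4 with the covariate, beside 15.2% of all probe sets when mated arrays were set against control and 5.1% when they were set against SP-infused. With the smooth muscle mean as the covariate, also chosen after seeing the data, CLDN7 differed by -0.34 between mated and control arrays (interval -0.74 to 0.059) and by -0.33 between SP-infused and control arrays (interval -0.74 to 0.076). The covariates were themselves measured after treatment, so a change that all epithelial genes share would not be seen with the epithelial one.

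The genes whose pattern over the 24 arrays was most like that of the 4 were ranked by Pearson r with their mean, group means removed, among 12303 genes. They were CDCP1 (r = 0.972), an epithelial membrane substrate of Src kinases, SPINT1 (0.961), an inhibitor of the epithelial protease matriptase, SEMA4A (0.958), a semaphorin, and CXCL16 (0.952), a chemokine held at the cell membrane. ELF1, an ETS transcription factor (0.937), KLF5, a Krüppel-like factor of epithelia (0.932), the potassium channel KCNK1 (0.920) and the acid ceramidase ASAH1 (0.915) followed. SPINT1 is also one of the 20 epithelial markers. In all 138 genes had r above 0.8, where the median over genes was -0.080.

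Other genes of the tight junction did not all share this pattern. Of 53 listed symbols 32 genes had a probe set, and their r with the mean of the 4 genes ran from -0.560 to 0.900 with a median of -0.030. It was above 0.5 for 7, between -0.5 and 0.5 for 23 and below -0.5 for 2. The mean of the 32 genes, the measure given for the marker lists, had r = 0.822 (rho 0.677) with that of the 4 genes. Without the 2 farthest arrays it was 0.723. The following are named after their r was seen. The highest belonged to LSR, which marks the corners where 3 cells meet (0.900), CLDN8, a claudin of tight epithelia (0.884), and CXADR, the coxsackievirus and adenovirus receptor (0.845). MARVELD3, a relative of occludin, had 0.816 and CGN, the plaque protein cingulin, 0.708. CLDN5, the claudin of endothelium, had r = -0.125 with the 4 genes and 0.852 with the other endothelial markers. AMOTL1, an angiomotin-like scaffold, had the lowest r, and 0.779 with the smooth muscle markers.

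**Figure D5:**
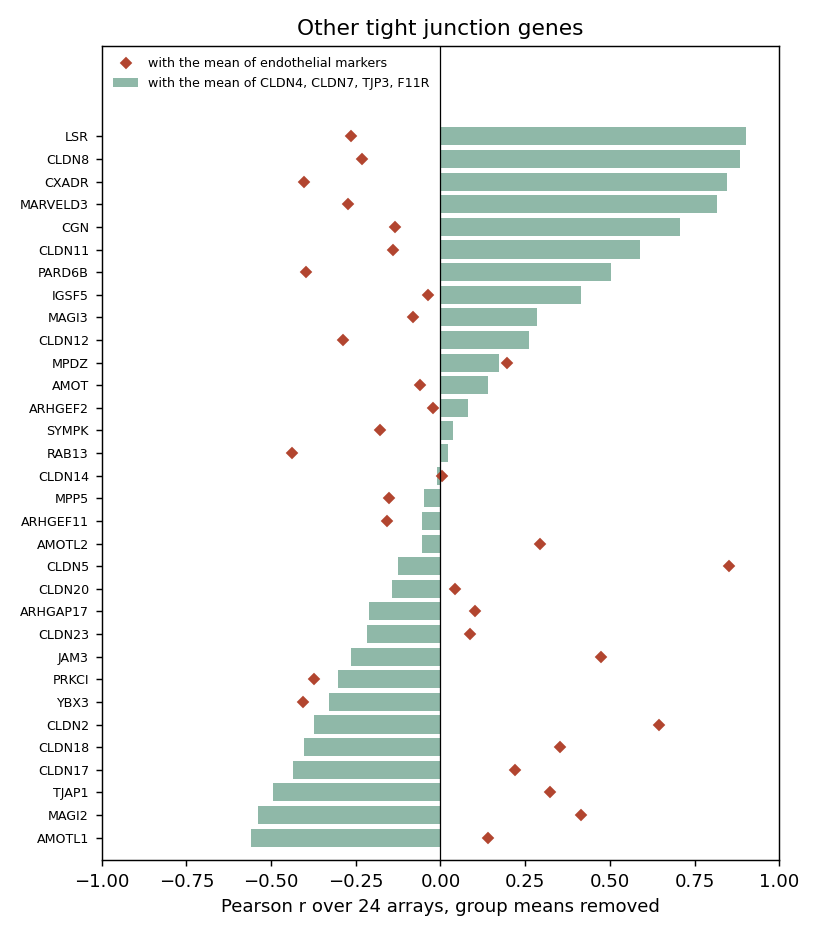
Pearson r over 24 arrays, group means removed (horizontal axis), for 32 other tight junction genes (rows); bars give r with the mean of CLDN4, CLDN7, TJP3 and F11R and diamonds r with the mean of the endothelial markers. LSR, CLDN8 and CXADR have the longest bars to the right, and the diamond of CLDN5 stands at 0.852.

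Between the groups, 24 of these 32 genes were lower and 8 higher in mated than in control arrays, with a median of -0.095, 1 gene at an unadjusted p under 0.05 in each direction, and 0 after adjustment (limma). Of all probe sets 61.1% were lower (median -0.047), and 2.88% were higher and 8.52% lower at that unadjusted p, a split that depends on scaling as given above. The genes were CLDN17, with a difference of -0.28 and a mean of 4.23, where signal is low, and CLDN5. CLDN5 averaged 5.88 ± 0.20 in mated arrays and 5.55 ± 0.34 in control arrays (SD, n = 8 arrays each, difference 0.33, adjusted p = 0.414, limma). Of the 9 endothelial markers, CLDN5 among them, 7 were higher and 2 lower in mated than in control arrays with a median of 0.31. At an unadjusted p under 0.05 there were 3 higher and 1 lower, and after adjustment 0. The lowest p were those of PECAM1, an adhesion molecule of endothelial junctions (0.41, adjusted p = 0.348), and TEK, the angiopoietin receptor (0.42, adjusted p = 0.348, limma). The 2 lower markers, named after their values were seen, were ROBO4 (-0.22, adjusted p = 0.404) and EGFL7 (-0.10, adjusted p = 0.699, limma). For SP-infused against control 15 of the 32 genes were higher and 17 lower with a median of -0.014, where 60.8% of all probe sets were lower. Below an unadjusted p of 0.05 there were 0 of these genes, beside 5.15% of all probe sets. CLDN11, known from myelin and the testis, had the lowest p there (0.50, SE 0.31, adjusted p = 0.891, limma). For mated against SP-infused 8 were higher and 24 lower, with a median of -0.056, where 53.7% of all probe sets were lower (median -0.012). At an unadjusted p under 0.05 there were 0 of the 32, beside 3.34% of all probe sets.

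Adherens junctions and desmosomes, which lie below the tight junction, held 14 measured genes of 25 listed symbols. In mated against control 10 were lower and 4 higher with a median of -0.15, where 61.1% of all probe sets were lower. At an unadjusted p under 0.05 there were 3 lower, beside 8.52% of all probe sets, and 0 after adjustment. CTNNA1, the alpha catenin that ties cadherins to actin, differed by -0.36 (SE 0.12, adjusted p = 0.349) and the desmosomal cadherin DSC2, whose mean of 3.03 is low, by -0.30 (adjusted p = 0.392, limma). The third was PPL, the desmosomal plaque protein periplakin (-0.34, adjusted p = 0.416, limma), named for its p after its value was seen. The mean of the 14 genes had r = 0.778 (rho 0.810) with that of the 4 tight junction genes, group means removed. CTNNA1 went the other way, with r = -0.345. JUP, plakoglobin, differed by 0.39 between SP-infused and control arrays (SE 0.14, adjusted p = 0.891, limma). In that comparison 5 of the 14 genes were higher and 9 lower, with a median of -0.029, where 60.8% of all probe sets were lower. At an unadjusted p under 0.05 there was 1 higher (JUP), beside 1.4% of all probe sets, and 0 lower, beside 3.76%. Among the epithelial markers EPCAM differed by -0.41 between mated and control arrays (SE 0.19, adjusted p = 0.424, limma). In that list 18 of 20 markers were lower and 2 higher, with a median of -0.16, beside 61.1% of all probe sets lower. As most of these markers varied together, they are not separate observations. At an unadjusted p under 0.05 there were 2 lower (EPCAM and OVOL1), beside 8.52% of all probe sets, and 0 after adjustment. In SP-infused against control 13 epithelial markers were higher and 7 lower, with a median of 0.10, where 60.8% of all probe sets were lower.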

How the data were processed

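The authors made the deposited log2 intensities with RMA in the oligo package of Bioconductor, and their processing notes also name limma; versions and a genome build are not given in the sources used here. Samples were grouped by the labels alone, and the values were taken as deposited. Their unit is a log2 intensity per probe set, so quantile normalization by the authors had already set the arrays against each other. Symbols came from the annotation of the array, which gave 1 symbol to 13257 probe sets, several to 427 and none to 13874.

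In R 4.3.3 with limma 3.58.1, group means were fitted over the 24 arrays with empirical Bayes moderation, and each comparison was adjusted by Benjamini-Hochberg over 27558 probe sets. The fit was tested on simulated data. There all arrays were independent, unlike arrays of the same sow, and the simulated shifts were larger than any difference of the 4 genes. The simulation therefore checks the code and not the p-values given here. Genes were named as the 4 members, the 2 lowest p of each list and comparison, and the 8 with the most similar pattern; exceptions are marked. Of the lists, those of other cell types are given by their counts or correlation, with some genes named. Of the endothelial list these are CLDN5, PECAM1, TEK, ROBO4 and EGFL7. Of the secretory list they are ESR1, PGR, MSX1, OVGP1 and LCN2, and of the ciliated list FOXJ1. The members and lists were chosen with earlier results of these data known. Alternatives were fits of 16 arrays, a filter at a mean log2 value of 5, equal array medians, cyclic loess, another variance prior, array weights, the replicate block, each array left out, the mean over probe sets, and, added after seeing the data, marker means as covariates.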

Additional observations from a re-analysis of the deposited data

Results flagged for a closer look

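CLDN7 in control replicate 7 stood at 6.31 (log2 intensity), apart from the other 7 control arrays, which ran from 7.34 to 8.12. The mean of the 32 other tight junction genes was also set apart in this array, at 6.65 against 6.77 to 6.86 in the other control arrays. In the same array the epithelial marker mean was the lowest of the control arrays (6.99) and the smooth muscle mean the highest (11.57). Of 39 sets of 8 arrays examined for a lone extreme value, 12 of them of the 4 tight junction genes, these 2 were found, and chance alone gives about 1 in 20.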

How the results depend on the processing

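No gene of the 4 passed at an adjusted p under 0.05 in any comparison under any of 34 alternatives, the lowest adjusted p being 0.37 (F11R, mated against control, epithelial covariate). The count at an unadjusted p under 0.05 was 0 throughout except for SP-infused against control with the epithelial covariate, where it was 1 (CLDN7). With equal array medians CLDN4 turned to 0.033 in SP-infused against control. TJP3 turned in that comparison to -0.031 with the epithelial and to -0.052 with the smooth muscle covariate. In mated against SP-infused, CLDN4 and CLDN7 turned to 0.13 each and F11R to 0.085 with the epithelial covariate. The cause was not tested. With arrays left out in turn, F11R ran from -0.037 to 0.15 in mated against control, CLDN4 from -0.18 to 0.17 and TJP3 from -0.037 to 0.046 in SP-infused against control, and CLDN7 from -0.32 to 0.0088 in mated against SP-infused. Over the 4 genes and 3 comparisons, 156 of 408 alternative values equalled the reported one, since the setting alters only the test or a group outside the comparison, or, for the mean over probe sets, since each gene has 1. Of the other 252, 228 kept their direction and 24 turned. Replicate numbers did not pair the arrays (r of same-numbered arrays from -0.400 to 0.502, and 4 of 24 arrays closest to their own number), although the arrays numbered 3 had r from 0.113 to 0.502 with each other. With the replicate block the lowest adjusted p of the 4 genes was 0.642, it changed no call, and 3054 in place of 3142 probe sets had an unadjusted p under 0.05 in mated against control.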
